A study of Mus musculus with 2 samples.

Results

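The mRNAs that build the MHC class II presentation pathway were followed across the cell types of colitis-associated colon tumors (CACs) by single-cell RNA sequencing. The set holds 10 named genes, chosen by name and not by their values: the chains H2-Aa, H2-Ab1 and H2-Eb1, the invariant chain Cd74, the transactivator Ciita, the peptide-exchange genes H2-DMa, H2-DMb1 and H2-DMb2, and H2-Oa and H2-Ob, which encode the inhibitor of exchange. All 10 were found among the 32291 genes of the count table. They were measured in the 11 cell types of the authors' annotation, and T cells served as a check of free RNA. Mouse T cells are known to make little class II, so that their level marks what free RNA and admixed cells can give.

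Tumors were induced with azoxymethane (AOM, 10 mg/kg) and 3 cycles of dextran sodium sulfate in the drinking water (DSS, 2.5% and in the last cycle 2%, 5 days each with 16 days of water between), and were taken on day 110. The mice were females on a C57Bl/6 background, 6 to 10 weeks old at the start. One group was homozygous for floxed Mir34a without Cre (Mir34a F/F, labelled Mir34a_F/F), and the other carried the same floxed alleles with LysM-Cre (Mir34a ΔMye, labelled Mir34a_Mye_KO), which deletes in macrophages, neutrophils and other myeloid cells. For each genotype, 6 to 8 tumors of 3 mice were combined into 1 library, so that each genotype is 1 sample and no test between genotypes was made. All intervals are 95% intervals, exact Poisson for unique molecular identifiers (UMIs, 1 for each captured mRNA molecule) and exact binomial for shares. For a level, the Poisson limits of the summed UMIs were rescaled to the mean over cells. All these intervals are approximate in that respect. They cover counting error only, not the spread between mice or between cells.

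The F/F library held 20312 cells and 147109016 UMIs, the ΔMye library 18571 cells and 193133086 UMIs, and the ΔMye library was deeper in 11 of 11 cell types, 1.11- to 5.69-fold by median. A level is therefore the UMI count of a gene per 10000 UMIs in each cell, averaged over the cells of a type, and cells were thinned to 1000 UMIs where single cells were compared. The primary transcript of Mir34a (mir34apri) had 133 and 462 UMIs in macrophages (0.0723 and 0.111 per 10000), higher in the library labelled ΔMye. This does not settle the genotype, so every direction below rests on the labels. There were 96 barcodes found in both libraries, 43 of them with the same cell type. Cells labelled macrophages, dendritic cells and T cells were highest for the defining markers of their own type.

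MHC class II molecules display peptides from the lysosome to CD4 T cells. The α and β chains of I-A (H2-Aa, H2-Ab1) assemble on the invariant chain Cd74. This invariant chain is later cleaved down to a fragment that DM removes in exchange for peptide, while DO holds DM back. H2-Eb1 encodes the β chain of I-E. No gene of the I-E α chain was measured here, so H2-Eb1 mRNA shows no assembled I-E. The genes share a promoter code, in which an X box bound by the RFX complex and CREB stands before a Y box bound by NF-Y, and these factors recruit Ciita, which by itself binds no DNA and sets the level of the whole set. Dendritic cells and B cells hold this program constitutively, macrophages induce it, mostly through interferon-γ, and B cells shut it off when Prdm1 silences Ciita in plasma cells.

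Of the 10 genes, 8 lie on chr17:34092340-34316674 (mm10), within the major histocompatibility complex, Ciita lies on chr16:10480059-10528418 (plus strand) and Cd74 on another chromosome, not shown here. RefSeq promoters, from 250 bases before to 50 bases after the start (GRCm38.p6), were listed for 7 of the 10 genes and not for H2-Ab1, Cd74 and Ciita. The stretches below show these boxes where they were found, so that it can be seen how far the members share them. Capitals mark TGATTGG, the core of a Y box, and, where it stands 28 to 40 bases before it on the same strand, GNAAC, the start of an X box. These letters were chosen after the sequences had been seen.

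H2-Aa: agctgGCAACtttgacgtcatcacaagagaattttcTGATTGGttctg

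H2-Eb1: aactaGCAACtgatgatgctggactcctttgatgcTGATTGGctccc

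H2-DMb1: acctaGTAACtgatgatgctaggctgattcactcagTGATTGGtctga

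H2-DMb2: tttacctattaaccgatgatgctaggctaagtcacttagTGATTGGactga

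H2-Oa: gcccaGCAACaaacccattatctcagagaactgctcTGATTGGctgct

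H2-Ob: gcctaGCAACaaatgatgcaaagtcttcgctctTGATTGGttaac

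These stretches are H2-Aa at chr17:34287862-34287909 (minus strand), H2-Eb1 at chr17:34305771-34305817, H2-DMb1 at chr17:34153092-34153139, H2-DMb2 at chr17:34145118-34145168, H2-Oa at chr17:34092298-34092345 and H2-Ob at chr17:34238813-34238857 (plus strand). From the first base of one box to the first base of the other, the distance was 31 bases in H2-Aa, H2-DMb1 and H2-Oa, 30 in H2-Eb1 and 28 in H2-Ob. The pair on the strand of the gene was found in 5 of the 7 genes with a promoter, and in 0.152% of all 32851 promoters (0.362% on either strand). TGATTGG alone was in 7.82% of all promoters and GNAAC in 84.9%, counting both strands. H2-DMb2 held TGATTGG without the pair, and the 2 starts listed for H2-DMa held neither TGATTGG nor the pair. A match is a description of these letters and shows no binding.

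Dendritic cells held the highest level of the 3 chains and of Cd74 in both libraries, followed by macrophages and B cells. The summed chains reached 103.7 UMIs per 10000 (102.6 to 104.8) in 347 dendritic cells of the F/F library and 105.5 (104.8 to 106.3) in 431 of the ΔMye library. In macrophages they reached 46.2 (45.9 to 46.5) in 2208 cells and 73.4 (73.2 to 73.7) in 2601 cells, and in cells labelled B cells 30.7 in 943 cells and 22.7 in 926 cells. T cells (3088 and 2649 cells) lay at 3.41 and 4.17, so that dendritic cells stood 30.4- and 25.3-fold, macrophages 13.6- and 17.6-fold and B cells 9.0- and 5.45-fold above them. The other cell types lay between 2.73 and 5.77 in the F/F library and between 3.94 and 9.88 in the ΔMye library, 0.80- to 2.37-fold the T cell level. Among these, endothelial cells, known to be able to induce class II, stood 1.69-fold (1.5 to 1.91) and 1.82-fold (1.67 to 1.98) above T cells, on 288 and 587 chain UMIs. After thinning, 51.4% and 50% of endothelial cells had no UMI of any member, against 54.2% and 51.0% of T cells. At least 10 UMIs were in 0.90% and 3.77% of endothelial cells, against 0.33% and 0.38% of T cells. Ciita had 0 and 3 UMIs in endothelial cells. The summed macrophage markers were at 3.72 and 4.28 there, against 2.49 and 2.22 in T cells, and their part in the chain level was not tested. The highest chain level of the other cell types, 9.88 in erythroid cells of the ΔMye library, came from 30 cells.

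**Figure D1:**
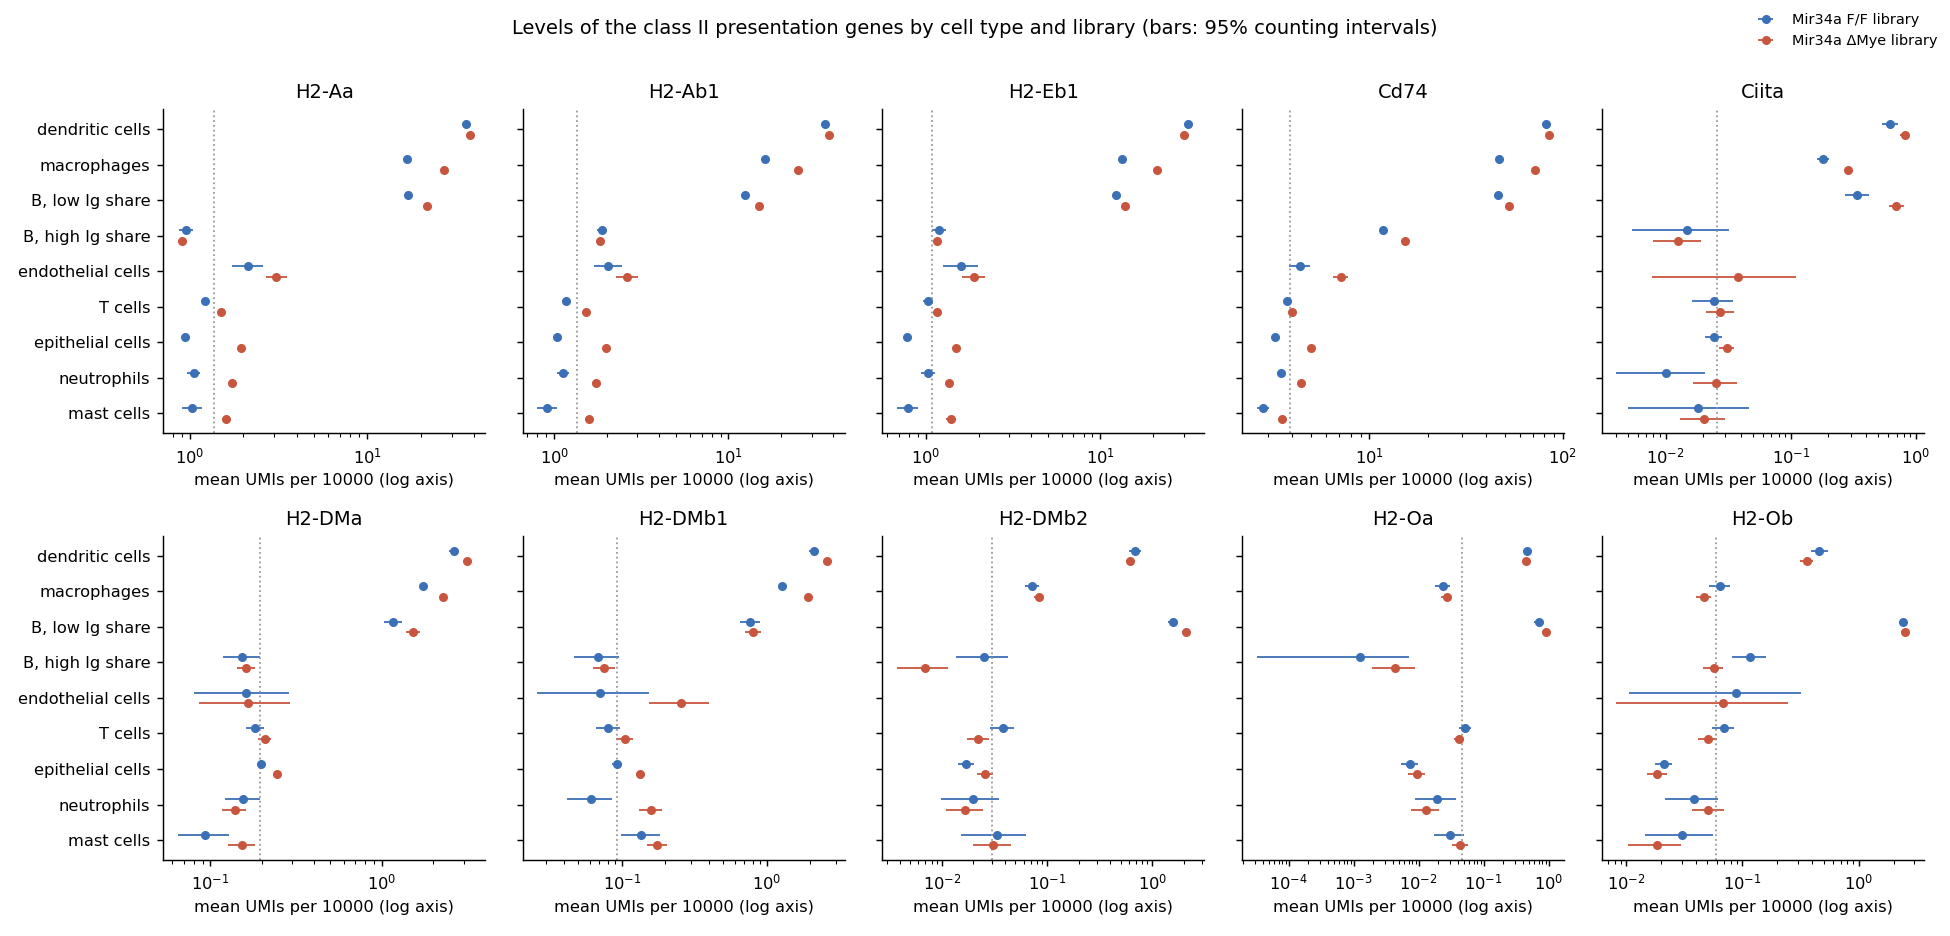
Level of each of the 10 genes by cell type, as the mean over cells of UMIs per 10000 on a log axis, in the Mir34a F/F (blue) and Mir34a ΔMye (red) library, with 95% counting intervals; the dotted line is the mean T cell level of both libraries, and values of 0 are not drawn. Dendritic cells, macrophages and B cells with a low immunoglobulin share stand to the right of the T cell line, except that macrophages fall back to it or below for H2-Oa and H2-Ob.

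For each member, the ratio of its level to that in T cells was taken, with the exact conditional binomial interval of the summed UMIs moved to it. A member counts as above T cells where this interval lies over 1, and as below where it lies under 1. This comparison was added after the values had been seen. In dendritic cells 10 of 10 members lay above T cells in both libraries, where 18.8% and 24.8% of all genes with at least 4 UMIs in both groups did, and in B cells 10 of 10 did, against 12.9% and 12% of genes. In macrophages 8 of 10 did in both libraries, against 21.2% and 26.8% of genes. H2-Oa lay below T cells (0.45- and 0.65-fold) and the interval of H2-Ob spanned 1 (0.93- and 0.92-fold). The macrophage values rested on 63 and 121 UMIs of H2-Oa and 100 and 185 UMIs of H2-Ob. Epithelial cells had less of both than macrophages, at 0.0074 and 0.0094 against 0.0233 and 0.0269 for H2-Oa and at 0.0210 and 0.0186 against 0.0641 and 0.0464 for H2-Ob, with intervals that did not overlap. T cells are thus not the lowest reference for DO, and whether macrophages hold DO mRNA above free RNA was not settled by this check. Neutrophils had 0 and 5 of 10 members above T cells (14.2% and 17.9% of genes), and mast cells 1 and 2 (14.7% and 18%). Below T cells were 5 and 2 members in neutrophils, 6 and 3 in mast cells and 7 and 2 in epithelial cells. The share of all genes below T cells was not taken. T cells were thus not the lowest reference for several other members either, mainly in the F/F library. Ciita had no UMI in fibroblasts of either library, and H2-DMb2 and H2-Oa had none in endothelial cells of either library, at 57 to 116 cells per group.

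T cells themselves were not free of class II mRNA: Cd74 had a UMI in 60.3% and 85.8% of them, and H2-Aa in 29.0% and 55.9%, against 68.6% and 87.4% of macrophages. Median depth in T cells was 3548 and 8043 UMIs, against 7252 and 11227 in macrophages. After thinning, the 22 and 20 T cells with a UMI of the B cell gene Cd79a held 4.32- and 5.26-fold more chain UMIs than the other T cells. The 237 and 183 T cells with a UMI of the macrophage gene C1qa held 1.32- and 1.91-fold more, while those with a UMI of the epithelial gene Epcam held 1.04- and 0.91-fold as many. Most T cells had no UMI of these class II cell markers and still held chain UMIs. The 2982 and 2622 without Cd79a held 0.326 and 0.390 per 1000. The 2767 and 2459 without C1qa held 0.326 and 0.379. Of other cell types with little class II, only Epcam was compared here. The source of the chain UMIs in T cells was not tested.

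Ciita, the master regulator, was counted in few molecules and yet set the presenting cells apart from T cells. Its level was 0.622 (0.538 to 0.716) and 0.810 (0.745 to 0.878) in dendritic cells, 0.182 (0.163 to 0.202) and 0.288 (0.272 to 0.304) in macrophages, and 0.0242 and 0.0274 in T cells, on 30 and 62 UMIs. Dendritic cells thus stood 25.7- and 29.6-fold and macrophages 7.51- and 10.5-fold over T cells. In cells labelled B cells Ciita was at 0.244 (0.195 to 0.301) and 0.289 (0.252 to 0.329), with intervals that overlapped those of macrophages. In epithelial cells Ciita was at the T cell level, 1.0-fold (0.67 to 1.53) and 1.12-fold (0.84 to 1.52).

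The cells labelled B cells held both B lymphocytes and plasma cells, which differ in class II. They were therefore split by the share of immunoglobulin mRNA among their UMIs, at 10%. This is a range of a per-cell share and not a cell type, but only 26 and 32 cells lay between 5% and 20%. The share of cells above 10% was 29.6% (26.7 to 32.6) in the F/F library and 59.6% (56.4 to 62.8) in the ΔMye library. Below it, Pax5 (the identity factor of B cells) was at 2.64 and 3.96, and above it at 0.013 and 0.0065, where Jchain, which joins secreted antibodies, was at 400.3 and 473.5. These 2 genes were chosen after their values were seen. Epithelial markers, the most abundant of another type, had a median over cells of 27.4 and 13.6 per 10000 in the low-share cells and 10.9 and 5.93 in the high-share cells.

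B cells with a low immunoglobulin share had chain levels of 41.9 and 50.6 (664 and 374 cells), 12.3- and 12.1-fold over T cells. Cells with a high share had 4.02 and 3.89 (279 and 552 cells), 1.18- and 0.93-fold the T cell level. Since immunoglobulins fill much of their totals, these folds were also taken on reduced totals, from which mitochondrial, immunoglobulin and ribosomal RNA-like genes were left out, where they were 1.97 and 1.56. Ciita showed the same division, at 0.340 and 0.696 in low-share cells and at 0.0148 and 0.0127 in high-share cells, on 6 and 22 UMIs.

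Cd74 was lowered less than the chains. In high-share B cells it was at 11.8 (11.4 to 12.1) and 15.3 (15.1 to 15.4), or 3.13- and 3.83-fold the T cell level (5.70- and 6.73-fold on the reduced totals). Its share of all Cd74 and chain UMIs, which does not depend on the totals, was 74.1% and 80.9% there, against 52.0% and 51.0% in low-share B cells. It was 49.9% and 49.3% in macrophages, 43.1% and 44.1% in dendritic cells and 52.2% and 50.1% in T cells. Of the partners of I-A, H2-Aa stood at 0.78- and 0.60-fold the T cell level in high-share cells on full totals and at 1.26- and 0.98-fold on the reduced totals, so that its direction against T cells turned with the totals in the F/F library and stayed below 1 in the ΔMye library. H2-Ab1 stood at 1.62- and 1.20-fold, and at 2.77- and 2.01-fold on the reduced totals.

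The exchange and inhibitor genes divided the presenting cells further. DM, the heterodimer that loads peptide, has 1 α gene and a pair of β genes in the mouse, and the β gene in use differed between cell types. H2-DMb2 made up 6.08% (5.24 to 7.02) and 4.56% (4.13 to 5.02) of the H2-DMb1 and H2-DMb2 UMIs in macrophages. In dendritic cells its share was 29.7% (26.7 to 32.9) and 22.5% (20.9 to 24.3), and in low-share B cells 69.9% (65.9 to 73.8) and 73.0% (69.9 to 76.0). The intervals of these 3 groups did not overlap in either library. The pair is partly alike in sequence: 20.4% of the 50-base windows in the last 500 bases of H2-DMb1 recur in H2-DMb2, and 13.75% of those of H2-DMb2 recur in 164 other genes, so a part of their reads may not have been assigned, and the shares are uncertain to that extent.

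The level of H2-DMb2 in low-share B cells was 1.56 (1.41 to 1.73) and 2.10 (1.94 to 2.27), which was 41.3- and 95.2-fold the T cell level, the latter resting on 56 and 71 UMIs. In macrophages it was 0.0727 and 0.0839, or 1.92- and 3.81-fold. H2-DMb1 showed the opposite order, at 1.27 and 1.94 in macrophages and at 0.772 and 0.805 in low-share B cells. H2-DMa, the α gene, was at 1.74 and 2.26 in macrophages, at 2.63 and 3.15 in dendritic cells and at 1.17 and 1.53 in low-share B cells.

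DO, whose chains H2-Oa and H2-Ob are known mainly from B cells and some dendritic cells, followed H2-DMb2. H2-Ob was at 2.42 (2.22 to 2.63) and 2.52 (2.34 to 2.71) in low-share B cells, 35.1- and 50-fold the T cell level, and at 0.459 and 0.358 in dendritic cells, 6.65- and 7.12-fold. H2-Oa was at 0.702 and 0.905 in low-share B cells and at 0.467 and 0.450 in dendritic cells. Of all DM and DO UMIs, DO made up 46.6% (44.1 to 49.1) and 43.4% (41.3 to 45.5) in low-share B cells, 14.9% and 11.7% in dendritic cells, and 2.35% and 1.68% in macrophages. The share in T cells was 27.6% and 23.6%, far above that in macrophages, on 174 and 247 DO UMIs. T cells thus differ from the macrophages in the make-up of the class II mRNAs they hold as well as in their level.

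**Figure D2:**
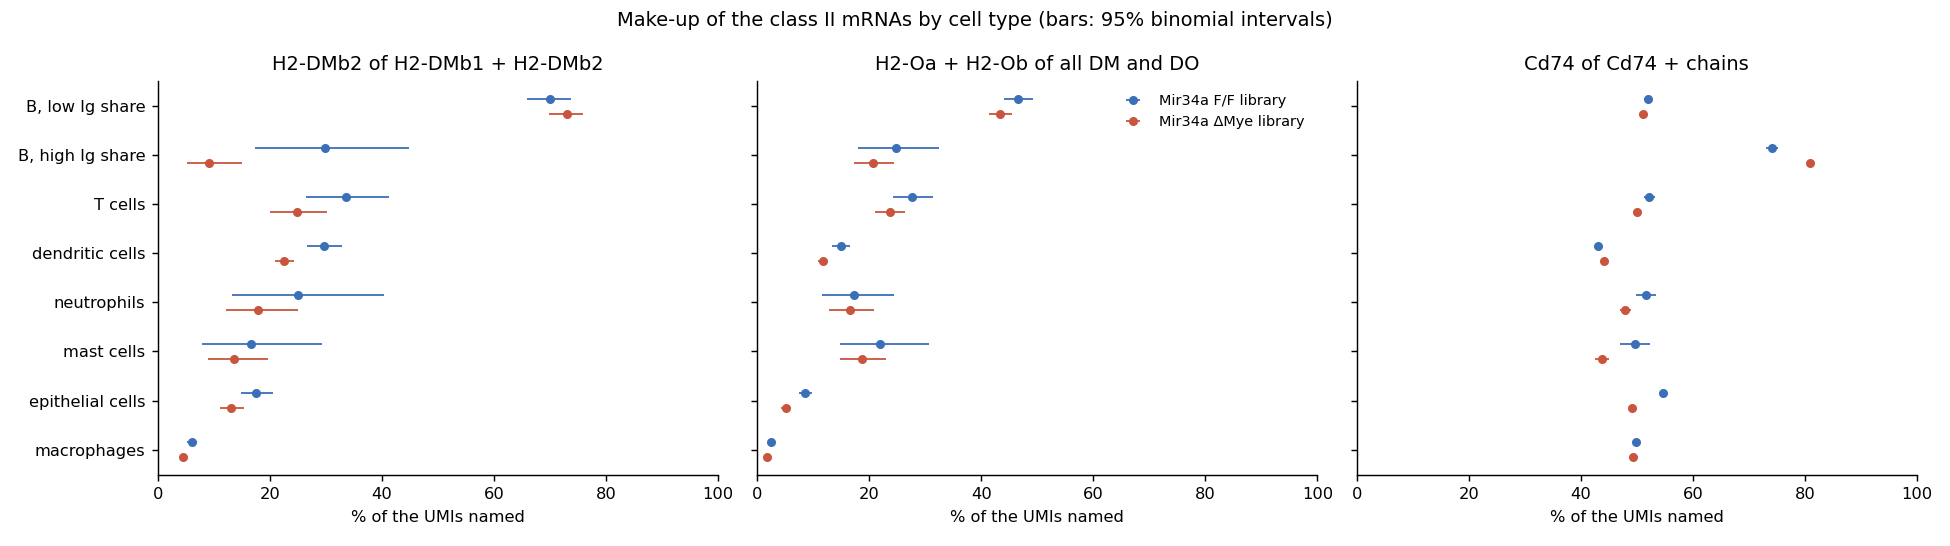
Share of UMIs, in percent with 95% binomial intervals, that H2-DMb2 takes of the DM β genes (left), H2-Oa and H2-Ob of all DM and DO genes (middle) and Cd74 of Cd74 and the chains (right), by cell type and library. Of the 8 groups plotted, low-share B cells are the highest and macrophages the lowest in the left and middle panels, and high-share B cells stand apart in the right panel, at 74.1% and 80.9%.

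Across the 22 means (11 cell types in 2 libraries), the members fell into groups by their likeness, described by Pearson's r of log levels. The points share libraries, depth and free RNA, and no test was made. The chains went with each other and with Cd74 at 0.98 or above, and with Ciita between 0.94 and 0.95. H2-Ob went with H2-Oa at 0.91 and with H2-DMb2 at 0.82, but with the chain sum at 0.60 and with H2-DMb1 at 0.47. Among 7050 genes, those most like the chain sum were Cd74 (0.99), H2-DMb1 (0.95), Ly86 (0.95), Ciita (0.95) and Kynu (0.94). Most like Ciita were Kynu (0.98), Pkib (0.97), Cd74 (0.95), Gm20513 (0.95) and H2-Aa (0.95). Gm20513 is an antisense gene that overlaps H2-Eb1 on the opposite strand. Most like H2-Ob were the further class II gene H2-Eb2 (0.94), Cacna1e (0.92), Cacna1s (0.92), Iglc3 (0.90) and Fcrla (0.90).

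Between the libraries, the chain sum was compared within each cell type. In macrophages it was higher in the ΔMye library by a log2 ratio of 0.67 (0.66 to 0.68). H2-Aa went from 16.7 to 27.1 (0.70), H2-Ab1 from 16.3 to 25.2 (0.63) and H2-Eb1 from 13.3 to 21.2 (0.67). Cd74 moved alongside (0.62). Ciita was higher by 0.66 (0.49 to 0.84) on 349 and 1235 UMIs, close to the chains as a mean over cells. On UMIs summed over cells it was 1.05, against 0.84 for the chains. H2-DMb1 was higher by 0.61 (0.55 to 0.68) and H2-DMa by 0.38 (0.32 to 0.43). H2-DMb2 differed by 0.21 (-0.05 to 0.47) and H2-Oa by 0.20 (-0.25 to 0.67), both with intervals that span 0. H2-Ob was at -0.47 (-0.83 to -0.10), but at 0.12 on UMIs summed over cells, so that its direction was not settled.

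Past 1.5-fold higher in macrophages of the ΔMye library were 6 of the 7 members with a mean of at least 0.1 (H2-Aa, H2-Ab1, H2-Eb1, Cd74, Ciita and H2-DMb1), against 1.69% of all 8593 genes at that level. None of the 7 was past 1.5-fold lower, where 3.18% of all genes were. H2-DMb2, H2-Oa and H2-Ob were below this mean and were not counted. The median log2 ratio of the 7 was 0.63, against -0.06 over all genes. For MHC class I, H2-K1 and H2-D1 summed were at 17.5 and 18.5 (0.08, 0.06 to 0.10). The median log2 ratio of the 9 class I presentation genes was 0.23, and 0 of 9 were past 1.5-fold, which is near the background. Beside this, the summed macrophage markers in these cells were at 42.3 and 49.4, the dendritic markers at 0.51 and 0.59 against 14.4 and 14.6 in dendritic cells, the B and plasma markers at 1.69 and 5.96 and the mast cell markers at 5.05 and 7.56. Lower in the ΔMye library were the epithelial markers, the most abundant of another type (23.4 and 17.9), the neutrophil markers (10.88 and 9.86) and the erythroid markers (2.56 and 0.0856). The median mitochondrial share was 2.01% and 3.75%. The parts of these mRNAs and of the mitochondrial share in the result were not tested. With the T cell level subtracted, the ratio in macrophages was 0.69. Fewer or more macrophages of a given kind and a change of mRNA in each cell cannot be told apart in these means.

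**Figure D3:**
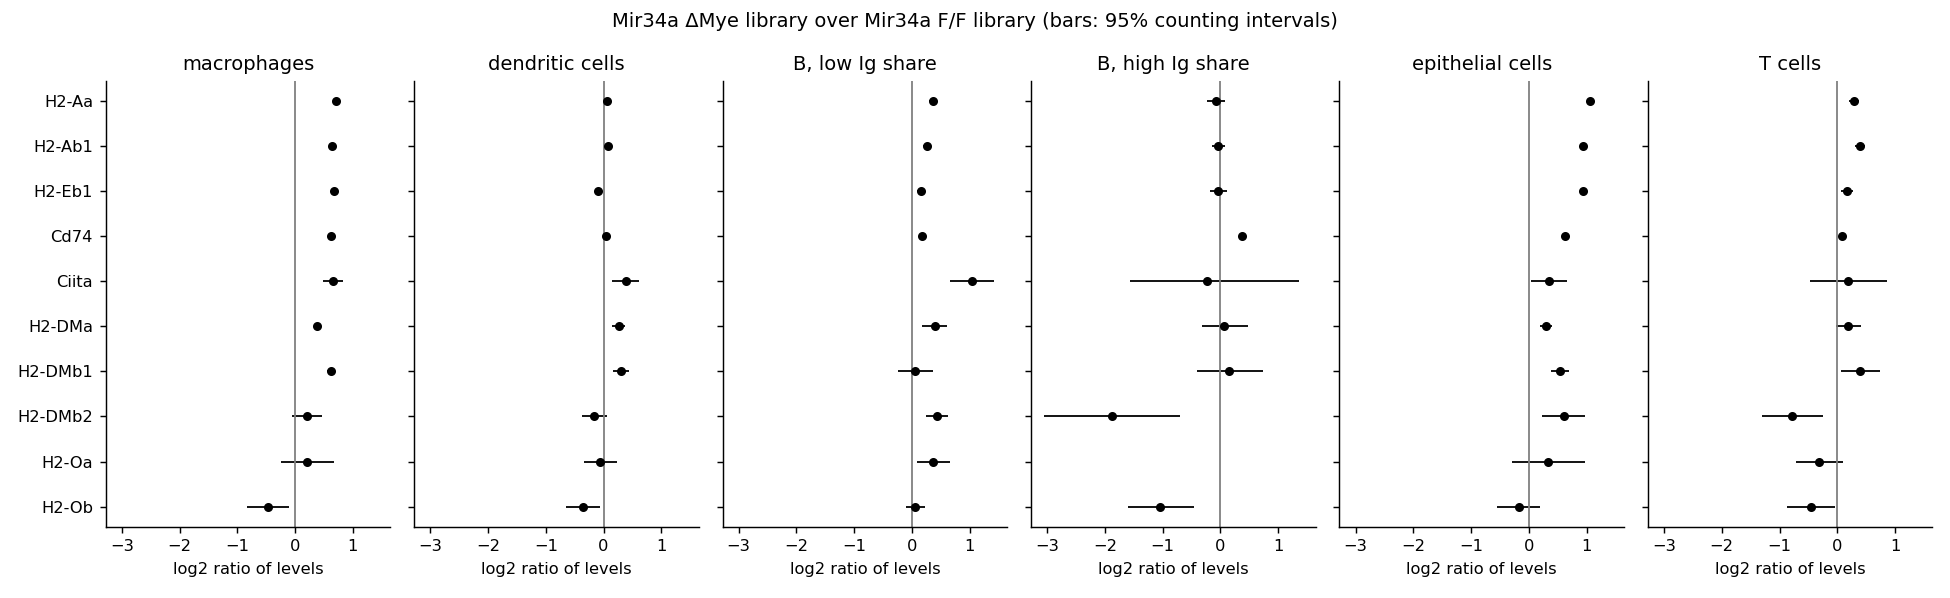
Log2 ratio of the level in the Mir34a ΔMye library over that in the Mir34a F/F library for each of the 10 genes in 6 groups of cells, with 95% counting intervals; 0 is the gray line and ratios on under 4 UMIs in a library are not drawn. In macrophages the chains, Cd74, Ciita and H2-DMb1 stand between 0.61 and 0.70, whereas in dendritic cells the chains and Cd74 stand between -0.09 and 0.08.

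In dendritic cells the chain sum differed by 0.03 (0.01 to 0.04), and by -0.014 after thinning, so its direction was not settled. H2-Aa was at 36.0 and 37.7, H2-Ab1 at 35.9 and 37.8, H2-Eb1 at 31.9 and 30.0 and Cd74 at 82.3 and 84.5. Ciita was higher in the ΔMye library by 0.38 (0.14 to 0.62), H2-DMb1 by 0.30 (0.17 to 0.43) and H2-DMa by 0.26 (0.15 to 0.38), while H2-Ob was lower, by -0.36 (-0.66 to -0.05). None of the 10 members was past 1.5-fold in either direction, against 4.96% of 8278 genes higher and 6.5% lower. The ratio of the chain sum in macrophages thus lay outside the interval of that in dendritic cells, though the difference was not tested over mice.

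Cells labelled B cells taken as a whole had a chain ratio of -0.43 (-0.47 to -0.40), opposite to that in macrophages. Within the low-share cells it was 0.27 (0.23 to 0.31) and within the high-share cells -0.05 (-0.12 to 0.03), so the value over all B cells goes with the larger share of high-immunoglobulin cells in the ΔMye library. In the whole B cells 24.6% of genes were past 1.5-fold lower and 4.09% higher, and 2 and 0 of the 10 members were (H2-DMb1 and H2-Ob lower). Median depth of B cells differed 5.69-fold between the libraries, and 2.34-fold in low-share cells.

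In low-share B cells Ciita stood out among the members. It had 81 and 202 UMIs and was higher in the ΔMye library by 1.03 (0.66 to 1.42), from 0.340 to 0.696. H2-DMb2 was higher by 0.43 (0.24 to 0.62), H2-DMa by 0.39 (0.17 to 0.61), H2-Oa by 0.37 (0.08 to 0.66), H2-Aa by 0.36 (0.30 to 0.41), H2-Ab1 by 0.25, Cd74 by 0.18 and H2-Eb1 by 0.16. H2-DMb1 (0.06, -0.24 to 0.36) and H2-Ob (0.06, -0.10 to 0.22) had intervals that span 0. Ciita was the only 1 of 10 members past 1.5-fold higher and none was lower, against 6.42% and 15% of 8682 genes. A share of 1 in 10 members is near that background.

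Epithelial cells, the bulk of the tumors, had low levels and a large ratio. Their chain sum was 2.75 in 11614 cells and 5.42 in 9865 cells, a log2 ratio of 0.98 (0.95 to 1.01). H2-Aa differed by 1.06, H2-Ab1 by 0.94, H2-Eb1 by 0.93 and Cd74 by 0.63, which made 4 of the 6 members with a mean of at least 0.1 past 1.5-fold higher, against 1.34% of 9009 genes (4.04% lower). Against T cells the level was 0.81-fold (0.78 to 0.83) in the F/F library and 1.30-fold (1.27 to 1.33) in the ΔMye library. In the F/F library 0 of 10 members were above T cells, and in the ΔMye library 6 were above, where 36.5% and 37.7% of all genes were above T cells. Class I chains were at 9.23 and 9.18 (-0.01, -0.02 to 0.01).

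In epithelial cells of the ΔMye library, mRNAs of some other cells were higher, and the 6 epithelial markers themselves were lower, at 83.7 and 58.3. The 6 B and plasma markers summed to 2.00 and 7.65, the 7 macrophage markers to 2.20 and 3.23 and the 6 mast cell markers to 5.93 and 9.27. The neutrophil markers were at 10.9 and 10.86, the dendritic markers at 0.22 and 0.25 and Ciita at 0.0242 and 0.0308, while the T cell markers were at 0.517 and 0.454 and the erythroid markers at 0.858 and 0.492. After thinning, epithelial cells with a UMI of Jchain held 1.46- and 1.85-fold more chain UMIs than those without, and those with a UMI of C1qa 1.37- and 1.77-fold more. The same held for mRNAs of cells with little class II: cells with a UMI of the neutrophil gene S100a8 held 1.28- and 1.43-fold more, and those with the T cell gene Cd3e 1.26-fold (with an interval that spans 1) and 1.78-fold more. These markers were added after the values had been seen. Cells with a UMI of the goblet cell mucin Muc2, which was in 10.7% and 15.3% of epithelial cells and in 9.72% and 8.78% of T cells, held 1.33- and 1.46-fold more, and those with the stem cell gene Lgr5 0.94- and 1.15-fold as many. The median mitochondrial share of UMIs in epithelial cells was 11.2% and 18.4%, and 20.04% and 38.8% of these cells had at least 25%. The parts of mRNA from other cells, of the lower epithelial markers and of the mitochondrial share in the epithelial ratio were not tested. The ratio ran from 0.78 with a pseudocount to 1.58 in cells with at least 500 genes and under 10% mitochondrial UMIs.

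Among the cell types near the T cell level, the chain sum was higher in the ΔMye library in several. Mast cells went from 2.73 to 4.57 (0.74, 0.63 to 0.86), neutrophils from 3.21 to 4.83 (0.59, 0.51 to 0.67) and T cells from 3.41 to 4.17 (0.29, 0.24 to 0.34). Erythroid cells had the largest ratio, 1.26 (0.84 to 1.68), on 91 and 104 chain UMIs in 106 and 30 cells. Fibroblasts (0.49) and basophils (0.51) were higher as means over cells, but at -1.06 and -0.03 on UMIs summed over cells, so their direction was not settled. The B and plasma markers went from 2.04 to 6.13 in mast cells and from 1.72 to 5.71 in neutrophils. They went from 2.21 to 5.03 in T cells and from 2.99 to 10.26 in erythroid cells. The macrophage markers went from 3.53 to 7.33 in erythroid cells and from 3.43 to 3.75 in neutrophils. In mast cells they fell from 2.35 to 1.93, and in T cells from 2.49 to 2.22. The part of these mRNAs in the ratios was not tested.

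Single cells showed how the levels were spread. Each cell was thinned to 1000 UMIs and the UMIs of all 10 members were added up. Macrophages had a median of 3 in the F/F library and 9 in the ΔMye library, and their quartiles were 1 and 15, and 2 and 25. Dendritic cells had a median of 19 in both libraries, low-share B cells 9 and 11, high-share B cells 1 and 2, and T cells 0 in both. At least 10 UMIs were found in 33.3% (31.3 to 35.3) and 49.6% (47.7 to 51.6) of macrophages, in 69.4% and 67.5% of dendritic cells, in 46.6% and 62.9% of low-share B cells, and in 0.33% and 0.38% of T cells. Macrophages were uneven: 24.7% and 12.1% had no UMI of any member, while 20.2% and 33.5% had at least 20, above the median of dendritic cells. In epithelial cells, at least 10 UMIs were found in 0.064% and 0.15%, but from 5 to 9 UMIs in 0.72% and 3.07%, so that the difference there was spread over cells with few UMIs.

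**Figure D4:**
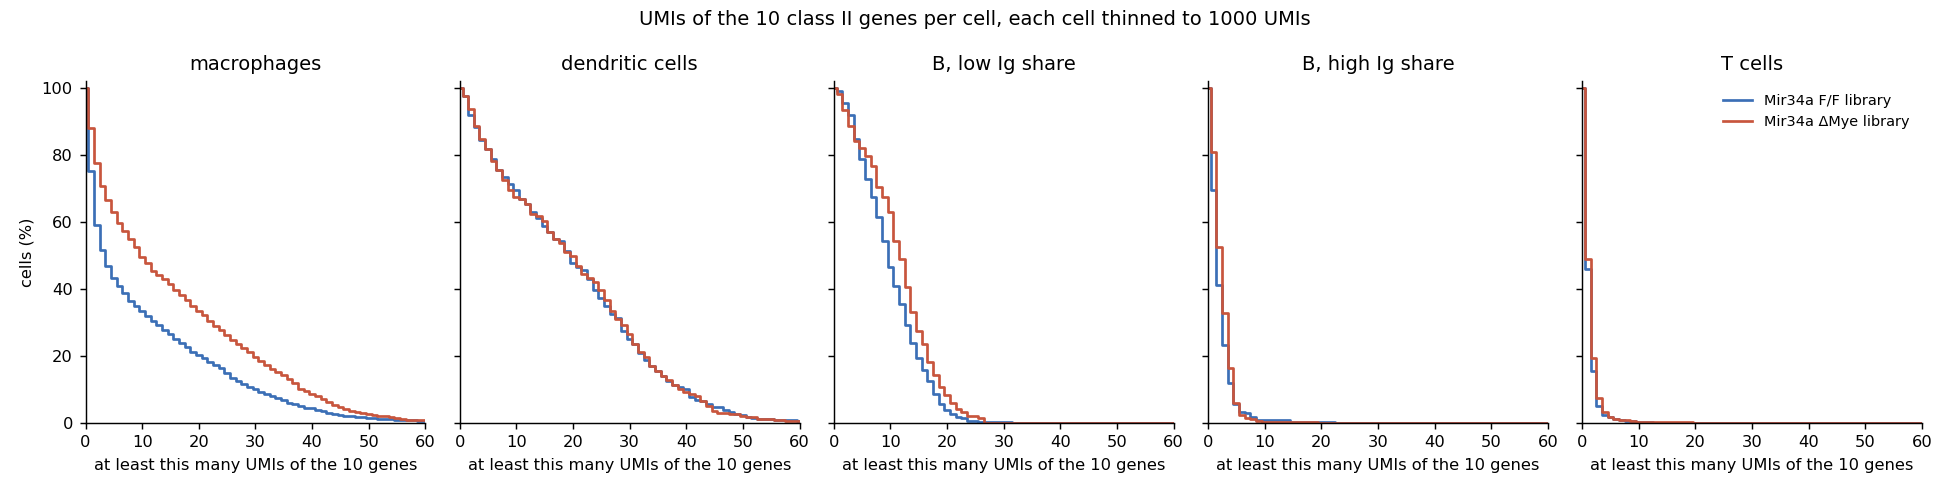
Percent of cells with at least the number of UMIs on the x axis, summed over the 10 genes, in cells thinned to 1000 UMIs, for the Mir34a F/F (blue) and Mir34a ΔMye (red) library. The curves of dendritic cells lie on each other, those of macrophages lie apart over most of the range, and T cells fall to 0.33% and 0.38% at 10 UMIs.

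Class II in macrophages was set against single marker mRNAs in the thinned cells. A UMI of a marker can come from free RNA, so its share in macrophages was compared with that in T cells and epithelial cells. C1qa was in 47.8% and 56.6% of macrophages, against 7.89% and 6.93% of T cells and 5.95% and 10.64% of epithelial cells. Mrc1 was in 13.3% and 20.3% of macrophages, Cx3cr1 in 17.5% and 22.4% and Itgax in 11.8% and 11.2%, against at most 2.5% of T cells and of epithelial cells. Ly6c2 was in 8.35% and 7.25% of macrophages against at most 2.16%, and Mgl2 in 3.65% and 5.93% against at most 0.36%. Arg1 was in 21.4% and 9.63% against at most 4.6%, and Spp1 in 23.4% and 13.0%, against 10.15% and 4.24% of T cells and 8.46% and 5.68% of epithelial cells. Ccr2, which T cells are known to express, was in 7.43% and 10.48% of macrophages and in 0.42% and 0.61% of epithelial cells. The shares of Nos2 (3.33% and 2.85%), Mki67 (4.33% and 5.05%) and Cdk8 (24.9% and 45.8%) were not above those in epithelial cells (9.26% and 8.63%, 7.46% and 6.34%, and 41.7% and 64.8%), and nothing is read from these genes. Cells with a UMI of Ly6c2, a marker of monocytes newly arrived from the blood, had low chain counts per 1000 UMIs, 0.94 against 4.93 in cells without in the F/F library and 1.41 against 7.83 in the ΔMye library (log2 -2.39 and -2.47, in 183 and 188 cells). Ccr2, the chemokine receptor of such monocytes, showed little gap, at 4.07 against 4.64 and 7.58 against 7.34 (-0.19 and 0.05). Those with Arg1, an arginase of suppressive macrophages, had 2.68 against 5.12 and 3.88 against 7.74 (-0.93 and -0.995). Cells with C1qa, a complement gene of mature tissue macrophages, had 7.14 against 2.27 and 10.3 against 3.48 (1.65 and 1.57). Those with the lectin genes Mrc1 and Mgl2 were high as well, with log2 differences of 1.15 and 0.94 for Mrc1 and of 1.57 and 1.03 for Mgl2. Cx3cr1, a receptor of resident macrophages, went with 0.81 and 0.65, and the integrin Itgax with 0.52 and 0.55.

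**Figure D5:**
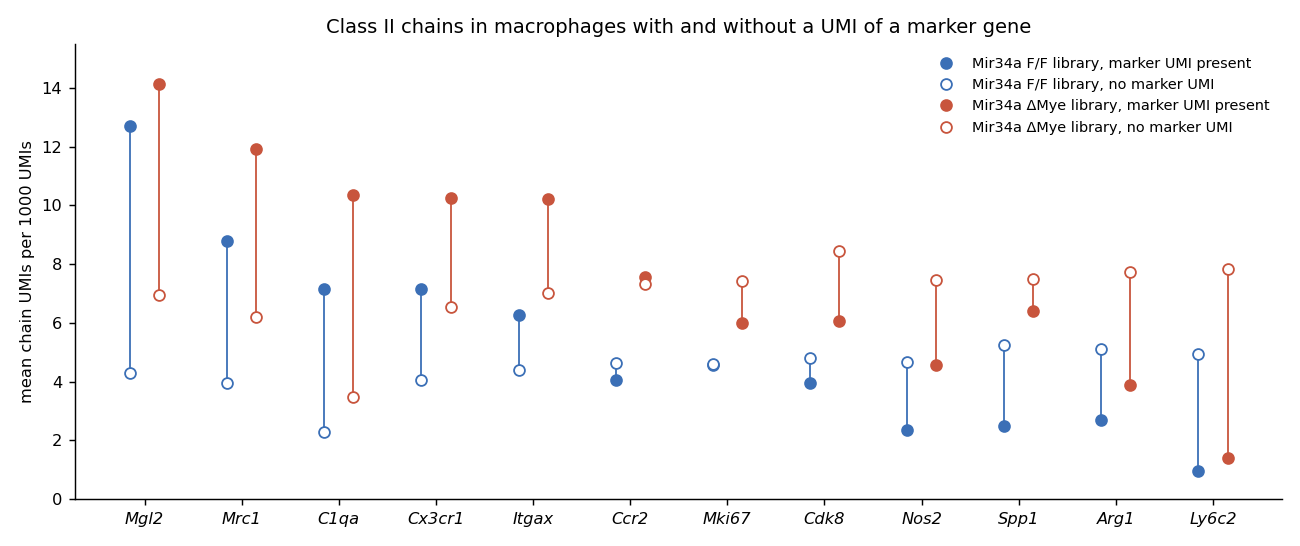
Mean chain UMIs (H2-Aa, H2-Ab1 and H2-Eb1) per 1000 UMIs in macrophages with (filled) and without (open) a UMI of the marker on the x axis, in both libraries. Cells with Mgl2, Mrc1 or C1qa stand above those without and cells with Arg1 or Ly6c2 below, in both libraries, and cells with Spp1 are at 2.49 in the F/F library and 6.40 in the ΔMye library; nothing is read from Mki67, Cdk8 and Nos2, whose shares were not above those in epithelial cells.

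The higher level in the ΔMye library was present in cells with each of these markers. Folr2 and Cd209a, also on the planned list, went the other way on few cells. The log2 ratio was -0.35 (-0.94 to 0.27) in the 5 and 14 cells with Folr2. In the 1 and 6 cells with Cd209a it was -2.755 (-4.33 to -1.21). The log2 ratio between libraries was 0.53 (0.49 to 0.57) in cells with C1qa and 0.62 (0.54 to 0.69) in those without, 0.44 (0.37 to 0.50) with Mrc1, 0.53 (0.41 to 0.65) with Arg1, 0.58 (0.30 to 0.87) with Ly6c2 and 0.15 (0.04 to 0.26) with Mgl2. It was larger in cells with Spp1, the osteopontin gene of a tumor-associated macrophage state, at 1.36 (1.26 to 1.46) against 0.52 (0.48 to 0.55) in cells without. The markers were also found in different numbers of cells: Spp1 in 514 of 2193 and 338 of 2595 cells, Arg1 in 469 and 250, Mrc1 in 291 and 527 and C1qa in 1049 and 1469. The part of these numbers in the ratio over all macrophages was not tested.

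Dendritic cells were uneven in another way. The 8 dendritic markers summed to 14.4 and 14.6 per 10000 in them, against 1.54 and 1.74 in T cells and 0.22 and 0.25 in epithelial cells. The share of each single marker below was not compared with that in other cell types, so a UMI of it can come from free RNA. Cells with a UMI of Siglech, a marker of plasmacytoid dendritic cells, had 3.14 chain UMIs per 1000 against 11.3 in cells without, and 2.44 against 11.5 in the ΔMye library (log2 -1.84 and -2.24, in 28 and 46 cells). Cells with Fscn1, an actin-bundling gene of migrating dendritic cells, were low as well, at 4.84 against 11.0 and 3.77 against 11.2. Ccr7, the receptor that guides such cells to lymph nodes, showed no such gap (-0.01 and 0.04, with intervals that span 0). The 9 and 18 cells with Xcr1, a marker of cross-presenting dendritic cells, held 15.6 and 13.6, whereas the 22 and 28 cells with Clec9a, a further marker of these cells, held 9.64 and 10.93 against 10.66 and 10.47 without. In B cells, those with the plasma cell factor Xbp1 held 1.02 and 0.49 chain UMIs per 1000 and those with the B cell gene Ms4a1 5.26 and 5.29. Xbp1 was at 0.71 and 0.76 per 10000 in low-share and at 10.06 and 11.01 in high-share B cells. Ms4a1 was at 1.895 and 3.116 and at 0.059 and 0.050. Their shares in T cells and epithelial cells were not compared here.

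Of the factors around the members, few were past 1.5-fold. In macrophages none of 5 measured genes of the promoter complex was past 1.5-fold higher and 1 was lower, the NF-Y subunit Nfyb (0.347 and 0.224, -0.63), with a median of -0.19 for the list, against -0.06 over all genes. Creb1 differed by 0.13. None of 10 upstream factors was past 1.5-fold in macrophages: Irf8 differed by 0.45, the myeloid factor Spi1 by 0.17 and Irf1 by 0.11, and the median of the list was 0.23. With 1.69% of all genes past it higher and 3.18% lower, counts of 0 in 5 and 0 in 10 are near the background. Ifng itself had 23 and 32 UMIs in macrophages. In dendritic cells Irf8 was past 1.5-fold higher (2.99 and 4.54, 0.60), and in low-share B cells Nfya was (0.61). Rfxap, an RFX subunit, was past it lower in both (-0.90 and -0.67). Rfxap was also past it lower in T cells, the check of free RNA, and in all B cells, neutrophils and mast cells. In epithelial cells Spi1 was at 0.108 and 0.178 (0.71).

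Of the 8 lysosomal genes that process antigen and invariant chain, none was past 1.5-fold higher in macrophages and Ctsd was past it lower (9.78 and 6.51, -0.59), against 1.69% and 3.18% of all genes, so that the 0 of 8 is near the background. Ctss, the protease that makes the last cut of the invariant chain in these cells, was at 14.97 and 14.8 (-0.017, -0.035 to 0.0022). Ctsl was lower by -0.45 and Lgmn higher by 0.23. The costimulatory gene Cd86, whose product is presented beside class II, was the only 1 of 6 past 1.5-fold in macrophages (3.72 and 5.76, 0.63). It was past it in dendritic cells (3.65 and 5.49, 0.59), in low-share B cells (4.21 and 8.62, 1.03) and in epithelial cells (0.144 and 0.321, 1.16) too. T cells, the check of free RNA, were higher for Cd86 as well, at a lower level (0.281 and 0.435, 0.63), as were mast cells (0.538 and 0.990, 0.88) and neutrophils (0.355 and 0.745, 1.07), while endothelial cells had 15 and 29 UMIs (0.98). Cd80, its relative, was at 1.70 and 1.65 in macrophages. March1, the ligase that turns over class II and CD86 proteins, was higher by 0.44 in macrophages and by 1.06 in low-share B cells. In these B cells Cd40 and Cd274 (0.74 each), Tap1 (0.84) and the class I transactivator Nlrc5 (1.34) were past 1.5-fold as well, and Ctsl (-0.70) and Ctsd (-0.82) lower, where 6.42% of all genes were past it higher and 15% lower.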

How the data were processed

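The authors aligned reads to mm10 with Cell Ranger 7.2.0 (from the submitters' processing notes), kept cells over 200 expressed mRNAs and under 25% mitochondrial RNA, and removed doublets with Scrublet. They deposited the natural log of 1 plus UMIs per 10000 (LogNormalize of Seurat), with an annotation of library and cell type, which was used as given. Of the deposited cells, 12.2% and 22.2% are at or over 25% mitochondrial UMIs; they were removed only in an alternative.

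The log was undone to whole UMIs (Python 3.11.15, numpy 2.4.6, scipy 1.17.1, pandas 2.3.3, matplotlib 3.10.9). Levels are means over cells of UMIs per 10000, compared as log2 ratios whose interval width comes from the exact conditional binomial interval of the summed UMIs; the script was tested on simulated data. UMIs at the 3′ end were not corrected for length, so a gene was compared only with itself or in a share across cell types. With 1 library per genotype no p-value was computed. Members past 1.5-fold were counted where their mean reached 0.1.

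Members, lists and tests were chosen with earlier results of these data known. All 10 members are named, with genes of the pathway lists past 1.5-fold or with a mean of at least 1 in macrophages, dendritic cells or B cells, and the 5 genes most like the chain sum, Ciita and H2-Ob. Further genes were named after their values were seen. One gene of the lists is not reported here. Overlapping genes on the opposite strand were Gm20513 (H2-Eb1), Dexi (Ciita), Brd2 (H2-DMa) and BC051537 (H2-Oa). Alternatives were summed UMIs, thinning, a pseudocount of 1, subtraction of T cells, 2 cell filters, totals reduced by 410 mitochondrial, immunoglobulin and ribosomal RNA-like genes, other immunoglobulin shares, a mean of 0.5 and, added after seeing the data, leaving out barcodes found in both libraries.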

Additional observations from a re-analysis of the deposited data

Results flagged for a closer look

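The chain sum was higher in the ΔMye library in macrophages (log2 ratio 0.67) and lower in cells labelled B cells (-0.43), which put opposite directions on the same genes in the same contrast. With 1 library per genotype, the difference between these ratios was not tested. Split by immunoglobulin share, low-share B cells were at 0.27 and high-share B cells at -0.05, and the high share made up 29.6% and 59.6% of the cells.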

How the results depend on the processing

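No paired analysis was possible because each genotype is 1 library. For the same reason no replicate could be left out. The chain sum in macrophages (0.67) kept its direction in 8 of 8 alternatives: 0.84 for summed UMIs, 0.68 after thinning, 0.66 with a pseudocount of 1, 0.69 after subtracting T cells, 0.69 under 25% mitochondrial UMIs, 0.69 with at least 500 genes and under 10% mitochondrial UMIs, and 0.76 on the reduced totals. In dendritic cells (0.03) it was 0.075 for summed UMIs, 0.078 in the stricter cell filter and 0.089 on the reduced totals, and reversed to -0.014 after thinning. In all B cells (-0.43) it was -0.76 for summed UMIs, -0.55 after subtracting T cells and -0.28 on the reduced totals. In low-share B cells (0.27) it was 0.33 for summed UMIs, 0.36 on the reduced totals and 0.23 with a share under 20%. In epithelial cells (0.98) it was 0.80 for summed UMIs, 1.12 after thinning, 0.78 with a pseudocount, 1.22 under 25% mitochondrial UMIs, 1.58 in the stricter filter and 1.25 on the reduced totals. Subtracting T cells gave no ratio there, since -0.66 and 1.24 were left. The causes were not tested. The share of all genes past 1.5-fold in macrophages, 4.86% (4.42 to 5.34), was 4.51% at a mean of at least 0.5. Of the alternatives, 16 moved a value by less than its counting interval, 22 by more and 1 reversed it. Without barcodes found in both libraries the 5 ratios were 0.67, 0.03, -0.43, 0.98 and 0.27.

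Depth limits the rare members most: Ciita, H2-DMb2, H2-Oa and H2-Ob rested on 349, 176, 63 and 100 UMIs in macrophages of the F/F library. The ΔMye library was deeper in 11 of 11 cell types. T cells were higher there for the chain sum (3.41 and 4.17) and lower for H2-DMb2 (0.0378 and 0.0221) and H2-Ob (0.0690 and 0.0503), while the ratio of H2-Oa (0.0514 and 0.0414) had an interval that spans 0.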
